A study of Mus musculus with 9 samples.

Results

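The small leucine-rich proteoglycans are secreted core proteins of the extracellular matrix, and 8 of their genes were followed through the differentiation of 3T3-L1 cells. The genes were decorin (Dcn), biglycan (Bgn), lumican (Lum), fibromodulin (Fmod), osteoglycin (Ogn), prolargin (Prelp), asporin (Aspn) and podocan (Podn). They were taken by symbol from the 19094 genes listed in at least 1 sample, and each symbol matched 1 NCBI gene ID. 3T3-L1 is an established mouse line of fibroblast shape whose cells store lipid and turn into fat cells after hormonal induction. Day 0 cells were untreated preadipocytes at near confluence. Day 4 cells had received dexamethasone, IBMX and insulin for 2 days and then insulin alone for 2 days, and day 8 cells had a further 4 days with insulin. Bulk RNA was sequenced from 3 samples per day, 9 in all, with 18216114 to 20452144 expected counts per sample. The samples of a day are labelled as separate, but cells were pooled at each stage and no source used here says that the replicates came from separate cultures, so p-values measure only the spread between these samples.

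Small leucine-rich proteoglycans carry a curved domain of leucine-rich repeats with which several of them bind collagen fibrils and limit fibril width. Decorin and biglycan carry chondroitin or dermatan sulfate chains, lumican and fibromodulin can carry keratan sulfate, and asporin has a stretch of aspartate residues instead of such a chain. Several also bind growth factors or receptors, decorin and biglycan being the best known. In fat, this matrix surrounds preadipocytes and adipocytes and is remodelled while the cells fill with lipid.

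All 9 samples carry the cell type label adipocytes, day 0 included. The 10 adipocyte markers examined summed to 144 to 149 FPKM at day 0, to 5938 to 8485 FPKM at day 4 and to 8812 to 9625 FPKM at day 8. FPKM is the authors' value per gene length and sequencing depth. Lpl, the lipoprotein lipase gene, made up most of the day 0 sum at 121, 114 and 116 FPKM. Fabp4, a fatty acid carrier, was at 9.52 ± 1.57, 4052 ± 777 and 4828 ± 152 FPKM (SD, n = 3) and was the most abundant marker in every day 4 and day 8 sample, and Lep was at 0 counts in every day 0 sample. Apart from Lpl the markers were thus low at day 0, and these samples are called preadipocytes here. All 8 preadipocyte and fibroblast markers were detected throughout, with sums of 4476 to 4871, 3289 to 3517 and 2894 to 3072 FPKM, and Vim, an intermediate filament gene, led them. The extraction text of the labels speaks of nerve ganglia, but the 11 sensory neuron and Schwann cell markers summed to only 2.03 to 2.51 FPKM in all samples, and Scn10a, Calca and Sox10 were at 0 in every day 0 sample.

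The base sequences upstream of 4 of the genes are shown because these genes had contrasting courses, with Bgn level, Aspn early, Ogn late and Fmod down and then up. Each line gives the 250 bases before the annotated start, 5′ to 3′ on the strand of the gene, from RefSeq for build GRCm38.p6. The windows are chrX:73483351-73483600, chr13:49544193-49544442, chr13:49607765-49608014 and chr1:134037004-134037253, all on the plus strand, and capitals mark the motif matches described after them. The build used to make the deposited values is not given in the sources used here.
Bgn: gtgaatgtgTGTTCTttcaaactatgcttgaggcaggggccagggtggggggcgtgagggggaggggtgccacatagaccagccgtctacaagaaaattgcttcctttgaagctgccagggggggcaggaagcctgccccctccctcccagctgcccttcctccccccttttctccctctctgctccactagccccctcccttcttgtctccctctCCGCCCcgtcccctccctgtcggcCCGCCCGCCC
Aspn: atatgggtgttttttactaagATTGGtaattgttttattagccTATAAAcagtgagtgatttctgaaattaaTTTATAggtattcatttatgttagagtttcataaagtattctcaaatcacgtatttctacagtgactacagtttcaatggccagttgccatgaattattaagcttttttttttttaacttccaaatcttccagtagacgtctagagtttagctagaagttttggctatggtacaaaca
Ogn: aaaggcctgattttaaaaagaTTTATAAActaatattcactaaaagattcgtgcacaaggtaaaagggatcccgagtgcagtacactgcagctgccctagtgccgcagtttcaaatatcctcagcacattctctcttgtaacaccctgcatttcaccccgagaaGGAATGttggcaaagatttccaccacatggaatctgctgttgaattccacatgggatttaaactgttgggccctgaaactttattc
Fmod: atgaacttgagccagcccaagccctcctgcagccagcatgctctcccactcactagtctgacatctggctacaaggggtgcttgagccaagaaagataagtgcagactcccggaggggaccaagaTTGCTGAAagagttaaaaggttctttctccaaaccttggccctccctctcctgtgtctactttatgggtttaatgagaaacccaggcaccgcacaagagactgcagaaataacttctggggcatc

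RefSeq windows were matched for 6 of the 8 genes (Bgn, Aspn, Fmod, Prelp, Ogn and, with 2 windows, Podn). They were searched on both strands for 7 motifs by their letters, and a match is a description of the sequence and not a binding site. The Bgn window held 3 matches to the GC box, spelled GGGCGG, of which a pair overlapped, and 1 match to AGAACA, a glucocorticoid receptor half-site. The GC box was found in 32.7% and the half-site in 16.1% of all 32851 windows. Aspn and Ogn each held 2 matches to the TATA box, spelled TATAAA, which 12.4% of all windows held. In Ogn these matches overlapped each other, and in both genes the matches began 178 to 229 bases before the start, not next to it. Aspn also held CCAAT, found in 33.8% of all windows, and Ogn held GGAATG, a TEAD motif found in 12.6%. The Fmod window held 1 match to the C/EBP motif, spelled TTGCNNAA, which 9.56% of all windows held, beginning 125 bases before the start. Prelp held 1 CCAAT match, the first window of Podn held 2 GC boxes, and the second held none of the 7 motifs. The AP-1 motif, TGANTCA, was in none of the 7 windows of these genes and in 6.75% of all windows. GC content ranged from 30.0% in Aspn to 78.0% in the first Podn window, with a median of 52.4% over all windows.

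During the whole process from day 0 to day 8, Lum rose 64.99-fold, Podn 5.93-fold, Dcn 4.88-fold, Fmod 2.54-fold and Prelp 2.33-fold. Aspn stood at 2.0-fold and Ogn at 1.77-fold, and both passed the p threshold without passing the threshold of fold. Bgn, the most abundant of the 8 genes, changed by 1.03-fold. Of the 8 genes, 5 were thus called higher and 0 lower in edgeR's quasi-likelihood test (more than 2-fold, with an adjusted p below 0.05 by Benjamini-Hochberg), while 18.0% of the 13154 tested genes were called, 10.3% higher and 7.70% lower. Without the threshold of fold, 7 of the 8 were higher and 0 lower, and 71.0% of all tested genes passed, 34.8% higher and 36.2% lower. The median log2 fold change was 1.28 over the 8 genes and -0.02 over all tested genes. All 8 genes were tested, but Podn passed the low-count filter through its later days, which favoured its call. Without Podn, a choice made after seeing the data, 1 of 7 genes was called higher and 1 lower in the early phase (day 4 vs. day 0), 4 higher and 0 lower in the late phase (day 8 vs. day 4) and 4 higher and 0 lower over the whole process, with medians of 0.19, 1.05 and 1.22.

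In the early phase, from day 0 to day 4, 2 of the 8 genes were called higher (Lum and Podn) and 1 lower (Fmod), against 17.8% of all tested genes called, 9.77% higher and 7.98% lower. By adjusted p alone 5 were higher and 1 lower, against 69.2% of all genes, 35.5% higher and 33.7% lower. The median was 0.34 over the 8 genes and 0.02 over all. In the late phase, from day 4 to day 8, 5 were called higher (Dcn, Fmod, Lum, Podn and Prelp) and 0 lower, against 7.05% of all tested genes called, 4.24% higher and 2.81% lower. By adjusted p alone 6 were higher and 0 lower, against 45.3% of all genes, 22.5% higher and 22.7% lower. The late median was 1.04 over the 8 genes and -0.01 over all. None of the 8 was lower in the late phase or the whole process at an unadjusted p under 0.05 either, and DESeq2, edgeR's exact test and limma also called 0 lower there. The 3 comparisons share samples, so their counts are not independent of one another. The bulk samples do not tell a change in the share of cells that use a gene from a change in RNA per cell.

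**Figure D1:**
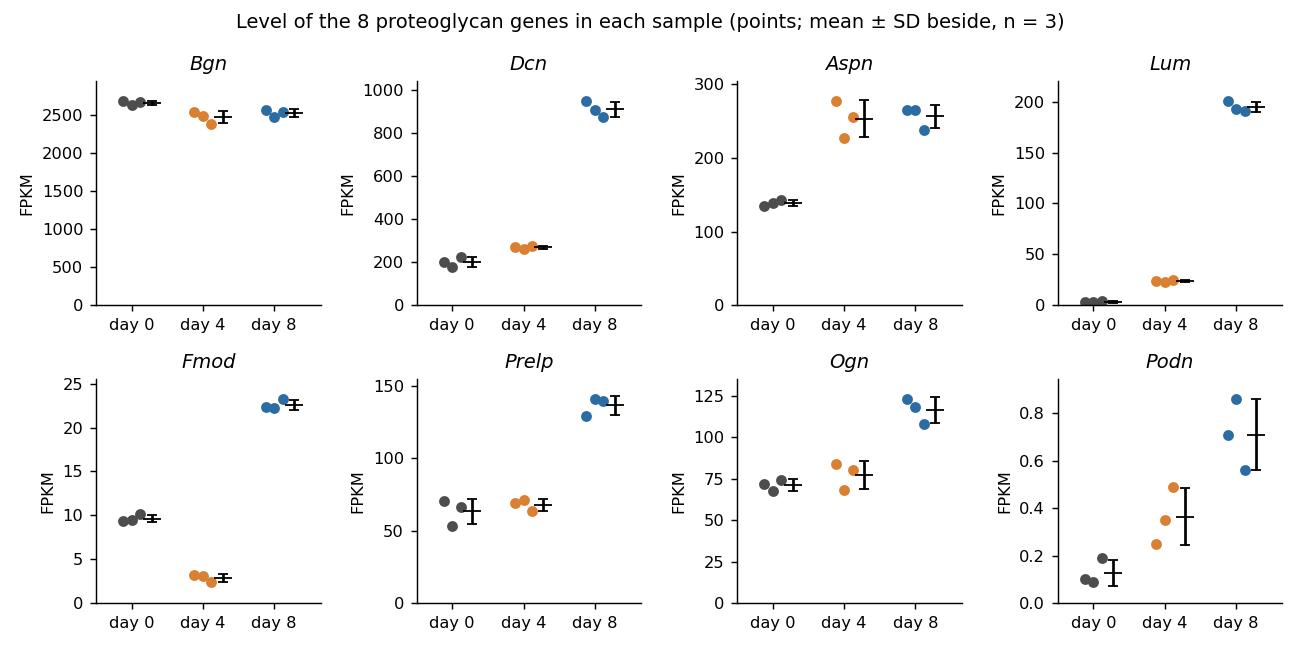
FPKM (vertical axis, from 0, a separate scale for each gene) of the 8 genes in the 3 samples of day 0, day 4 and day 8 (points), with the mean and SD beside them. Lum rises at both steps from 3.23 to 195 FPKM, Fmod dips to 2.85 FPKM at day 4, Aspn is level from day 4 at about 253 to 256 FPKM, and Bgn stays between 2385 and 2683 FPKM.

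Among the proteins with chondroitin or dermatan sulfate chains, Bgn kept nearly the same level and Dcn increased late. Bgn was at 2683, 2638 and 2670 FPKM in the day 0 samples, at 2544, 2492 and 2385 FPKM at day 4 and at 2572, 2473 and 2546 FPKM at day 8. In FPKM every later sample was thus below every day 0 sample. After TMM scaling the log2 fold change of Bgn over the whole process was 0.04 (SE 0.05, 95% interval -0.06 to 0.14, adjusted p = 0.481), and it turned to -0.07 with library size alone or with FPKM on a log scale. No direction of Bgn was therefore read from these data. Bgn took 0.646% ± 0.00561 of all expected counts at day 0 and ranked 5 or 6 among all genes by FPKM in every sample.

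Dcn was at 202, 179 and 224 FPKM at day 0, at 272, 262 and 274 FPKM at day 4 and at 948, 910 and 876 FPKM at day 8. The 3 days did not overlap, and the step from day 4 to day 8 was the larger. The early log2 fold change was 0.48 (SE 0.07, adjusted p = 6.4e-06), which stayed below the threshold of fold. Dcn then rose 3.49-fold in the late phase, with a log2 fold change of 1.80 (SE 0.07, adjusted p = 4.7e-12). By day 4 it had made 21.2% of its whole change on the log2 scale. Its rank among all genes by FPKM moved from between 266 and 331 at day 0 to between 50 and 60 at day 8.

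Aspn, which is related to Dcn and Bgn but lacks their chain, changed early and then held its level. It was at 135, 139 and 143 FPKM at day 0, at 277, 227 and 256 FPKM at day 4 and at 266, 266 and 238 FPKM at day 8. All later samples were above all day 0 samples, and those of day 4 and day 8 overlapped. The early log2 fold change of 0.93 (SE 0.06, adjusted p = 1.6e-09) was 93.7% of the whole change, and the late one was 0.06 (SE 0.06, 95% interval -0.07 to 0.20, adjusted p = 0.441). Over the whole process the log2 fold change of Aspn was 1.00, just under the threshold before rounding, with a range from 0.88 to 1.06 over the other settings, 7 of which called it. An exon of Aspn overlaps Cenpp on the opposite strand in GENCODE vM21, and the use of strand in the counting is not stated. Cenpp was at 1.46, 1.22 and 1.80 FPKM.

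Of the proteins that can carry keratan sulfate, Lum had the largest change of the 8 genes. It was at 2.67, 3.15 and 3.87 FPKM at day 0, at 23.6, 23.3 and 24.5 FPKM at day 4 and at 200, 193 and 191 FPKM at day 8. The samples of the 3 days were far apart, and the steps were of like size. Lum rose 7.70-fold in the early phase (log2 fold change 2.94, SE 0.09, adjusted p = 4.7e-14) and 8.45-fold in the late phase (3.08, SE 0.06, adjusted p = 8.5e-15), with 48.9% of the whole log2 change made by day 4. Its counts were 113 to 164 at day 0 and 7863 to 8363 at day 8, and its rank by FPKM moved from between 9215 and 9946 to between 330 and 349.

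Fmod, whose protein binds collagen in a region it shares with lumican, was the only gene of the 8 that was called lower in any of the 3 comparisons. It was at 9.31, 9.44 and 10.1 FPKM at day 0, at 3.13, 3.07 and 2.35 FPKM at day 4 and at 22.3, 22.3 and 23.3 FPKM at day 8. The day 4 samples were below and the day 8 samples above all day 0 samples. Fmod fell 3.22-fold in the early phase (log2 fold change -1.69, SE 0.09, adjusted p = 9.0e-11), rose 8.17-fold in the late phase (3.03, SE 0.09, adjusted p = 2.0e-13) and ended 1.34 above day 0 on the log2 scale (SE 0.07, adjusted p = 9.9e-11). Day 4 thus had Lum above Fmod, whereas day 0 had Fmod above Lum, by 8.35-fold and 2.98-fold in mean FPKM.

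Prelp, whose protein binds collagen and heparan sulfate, was at 70.2, 53.1 and 66.2 FPKM at day 0, at 69.3, 70.8 and 63.2 FPKM at day 4 and at 129, 141 and 140 FPKM at day 8. The first 2 days overlapped and day 8 stood apart. The early log2 fold change was 0.17 (SE 0.08, 95% interval -0.01 to 0.34, adjusted p = 0.0873), and Prelp rose 2.08-fold in the late phase (log2 fold change 1.05, SE 0.08, adjusted p = 4.0e-08). In GENCODE vM21, 8.47% of the 50-base stretches of Prelp also occur in Gm15851, which overlaps it on the opposite strand, and whether the counting told the strands apart is not stated.

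Ogn, a shorter protein of another class that is abundant in connective tissue, was at 72.1, 67.3 and 74.0 FPKM at day 0, at 84.2, 68.0 and 80.3 FPKM at day 4 and at 123, 118 and 108 FPKM at day 8. As for Prelp, day 0 and day 4 overlapped and day 8 was higher. The log2 fold changes were 0.19 (SE 0.07, adjusted p = 0.0236) early and 0.63 (SE 0.07, adjusted p = 1.6e-06) late, and 0.82 (SE 0.07, adjusted p = 2.2e-08) for the whole process, all below the threshold of fold. Podn, whose protein binds collagen and restrains smooth muscle growth, was hardly detected, at 0.10, 0.09 and 0.19 FPKM at day 0, 0.25, 0.35 and 0.49 FPKM at day 4 and 0.71, 0.86 and 0.56 FPKM at day 8. Its counts were 5.02 to 12.3, 15.7 to 30.9 and 35.1 to 55.4, above the detection floor of 3 counts, which is 0.147 to 0.165 CPM. The log2 fold change of Podn was 2.57 over the whole process (SE 0.34, adjusted p = 4.0e-06), 1.55 early (SE 0.38, adjusted p = 0.00173) and 1.02 late (SE 0.28, adjusted p = 0.00669). The late call of Podn was lost without day 4 replicate 1 (0.81) or day 8 replicate 2 (0.86), and with library size alone (0.97).

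**Figure D2:**
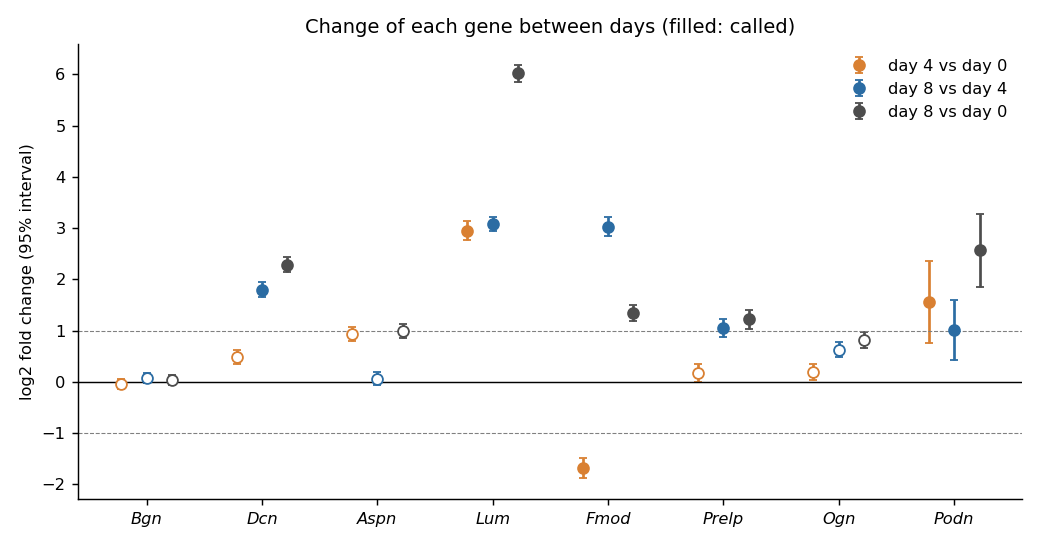
Log2 fold change (vertical axis) of each gene in the early phase (day 4 vs. day 0), the late phase (day 8 vs. day 4) and the whole process (day 8 vs. day 0), with 95% intervals of edgeR's quasi-likelihood fit. Filled points passed the adjusted p and the fold threshold. Lum is high in all 3 comparisons up to 6.02, Fmod changes sign between -1.69 and 3.03, and the intervals of Bgn include 0.

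Because Bgn was level, the family as a whole changed less than most of its genes. The summed FPKM of the 8 genes was 3174, 3089 and 3191 at day 0, 3274, 3147 and 3087 at day 4 and 4262, 4124 and 4123 at day 8. Day 0 and day 4 overlapped, and day 8 was 1.32-fold above day 0. Without Bgn the sums were 488 ± 34.8, 695 ± 37.7 and 1639 ± 57.3 FPKM (SD, n = 3), a 3.36-fold difference between day 8 and day 0. The rise of Dcn equalled 69.7% of the difference of 1018 FPKM between the sums of day 8 and day 0. That difference is net of the lower FPKM of Bgn at day 8. Between the sums without Bgn the difference was 1151 FPKM, of which the rise of Dcn was 61.7%. As a share of all FPKM the 8 genes held 0.726% ± 0.0179, 0.701% ± 0.0339 and 0.927% ± 0.0150 on the 3 days.

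The make-up of the sum shifted from Bgn towards Dcn and Lum. Bgn held 84.5% ± 0.852 of the summed FPKM at day 0, 78.1% ± 1.00 at day 4 and 60.7% ± 0.940 at day 8. Dcn held 6.39% ± 0.606, 8.52% ± 0.322 and 21.9% ± 0.525, and Lum 0.102% ± 0.0186, 0.751% ± 0.0375 and 4.67% ± 0.0391 (SD, n = 3 throughout). The ratio of Bgn to Dcn in FPKM was 13.3, 14.7 and 11.9 in the day 0 samples, 9.34, 9.50 and 8.69 at day 4 and 2.71, 2.72 and 2.90 at day 8, without overlap between the days. Aspn held 4.41% ± 0.135, 7.99% ± 0.674 and 6.15% ± 0.343, with its highest share at day 4.

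**Figure D3:**
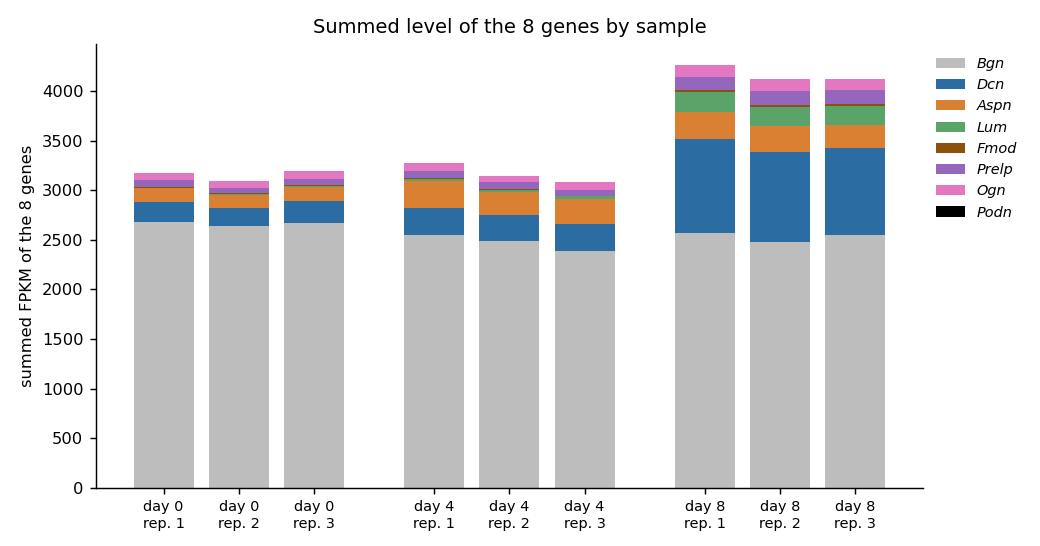
Summed FPKM of the 8 genes (vertical axis, from 0) in each of the 9 samples, stacked by gene. The Bgn segment is 84.5% of the bar at day 0 and 60.7% at day 8, where the Dcn segment reaches 21.9% and the bars reach 4123 to 4262 FPKM.

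The order of the levels in FPKM at day 0 was Bgn, Dcn, Aspn, Ogn, Prelp, Fmod, Lum and Podn. Ogn and Prelp overlapped in their samples and are not ordered by these data. At day 4 the order was Bgn, Dcn, Aspn, Ogn, Prelp, Lum, Fmod and Podn, and both Dcn with Aspn and Ogn with Prelp overlapped. At day 8 it was Bgn, Dcn, Aspn, Lum, Prelp, Ogn, Fmod and Podn, with no overlap between neighbours in the order. Lum thus moved from the seventh to the fourth place. The spread between samples was widest for Podn, with a coefficient of variation of 43.5% at day 0, and was 0.882% for Bgn on that day.

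Several of the 8 genes are neighbours in the mouse genome (RefSeq order of protein-coding genes, GRCm38.p6), and neighbours did not share a course throughout. On chromosome 10, Dcn is followed by Lum, Kera and Epyc, of which Kera codes for keratocan and Epyc for epiphycan. Kera rose early, with a log2 fold change of 2.81 (SE 0.23, adjusted p = 1.7e-08), at 0.323 ± 0.0862, 2.18 ± 0.139 and 3.65 ± 0.656 FPKM, where 1 of the 3 day 0 samples was below the level of the low-count filter, and Epyc stayed below 1 FPKM with 1.00 to 22.9 counts. On chromosome 13, Aspn and Ogn flank Omd, the osteomodulin gene, and Ecm2 lies on the other side of Aspn. Omd was at 1.12 ± 0.275, 0.817 ± 0.239 and 0.617 ± 0.0651 FPKM, a log2 fold change of -0.78 over the whole process (SE 0.27, adjusted p = 0.0156) beside 1.00 for Aspn and 0.82 for Ogn. On chromosome 1, Prelp lies between Fmod and Optc, and Optc was at 0.153, 0.130 and 0.0900 mean FPKM and was not tested. Fmod and Prelp had early log2 fold changes of -1.69 and 0.17 and late ones of 3.03 and 1.05. Bgn on chromosome X and Podn on chromosome 4 have no other gene of the family among the 3 nearest on either side.

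**Figure D4:**
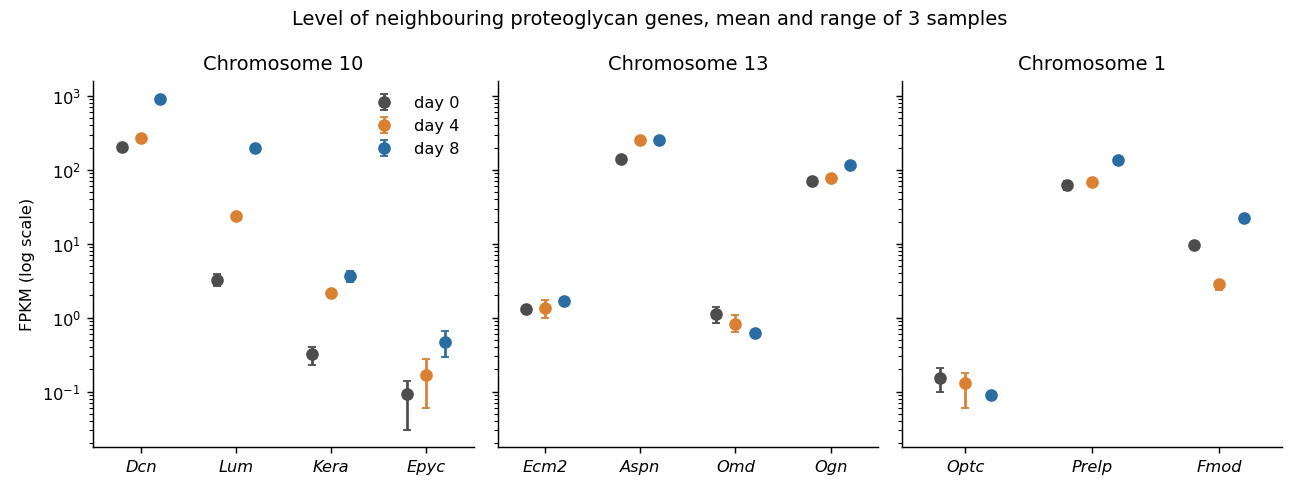
Mean FPKM (vertical axis, log scale) at day 0, day 4 and day 8 of the genes in the 3 chromosomal groups, in RefSeq order along each axis, with the range of 3 samples as bars. All 4 genes of the chromosome 10 group have higher means at day 8 than at day 0, Omd between Aspn and Ogn has a lower mean, and Fmod has its lowest mean at day 4, where Prelp is near its day 0 mean.

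Of the 11 other genes of the family and its close relatives, 7 were tested. In the early phase 2 were called higher (Kera and Nepn) and 1 lower (Podnl1), in the late phase 2 higher (Epyc and Podnl1), and over the whole process 3 higher (Epyc, Kera and Nepn), with medians of 0.63, 0.47 and 0.46, against 17.8%, 7.05% and 18.0% of all tested genes called. Kera, Nepn and Epyc were below the level of the low-count filter (0.495 CPM) in 1 or more samples of day 0 and passed it through the days on which they are high, so their calls were favoured and the counts and medians support nothing. Of the other tested genes (Omd, Ecm2, Tsku and Podnl1), which reached that level in every sample, Podnl1 was the one called. The calls of Chst15, Col14a1, Cspg4, Tll1 and Ctgf given further on, and of 11 markers of cell types, were favoured in the same way. The 11 other genes of the family and its close relatives summed to 23.9 to 33.0 FPKM in all samples. Tsku, the tsukushi gene, made up most of that sum at 17.1 ± 0.624, 25.2 ± 1.06 and 19.8 ± 1.11 FPKM. Podnl1, the closest relative of Podn, had log2 fold changes of -1.08 (SE 0.15, adjusted p = 9.2e-06) early, 1.06 (SE 0.15, adjusted p = 3.3e-05) late and -0.02 (SE 0.14, adjusted p = 0.883) over the whole process. Nepn had 0 counts in every day 0 sample, 5 to 19 at day 4 and 13 to 25 at day 8, a mean of 0.896 CPM at day 8, which is at least 5.44-fold higher than the highest floor of the day 0 samples, 0.165 CPM. Ecm2 was at 1.30 ± 0.0850, 1.36 ± 0.370 and 1.67 ± 0.0586 FPKM, and Optc, Chad, Chadl and Nyx had at most 11.3 counts in any sample.

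The collagens to which these proteins bind differed among themselves in timing. Of 13 tested fibrillar, fibril-associated and type VI collagen genes, 4 were called higher and 2 lower early, 2 higher and 1 lower late, and 5 higher and 1 lower over the whole process, with medians of 0.45, 0.31 and 0.76. The called share was 46.2%, 23.1% and 46.2%, against 17.8%, 7.05% and 18.0% of all tested genes. Col1a1 was at 1540 ± 39.0, 1299 ± 59.0 and 2270 ± 18.3 FPKM and Col1a2 at 1835 ± 94.5, 1476 ± 104 and 2512 ± 34.5 FPKM, with whole log2 fold changes of 0.67 and 0.57 below the threshold of fold. Col3a1, the fibrillar collagen III gene, rose late, with log2 fold changes of 0.08 (SE 0.08, adjusted p = 0.407) early and 1.26 (SE 0.08, adjusted p = 3.7e-09) late. Col6a2 and Col6a3 rose early, by 1.42 and 1.61 on the log2 scale, together with Col6a1 and Col5a3. The late log2 fold changes were -0.23 (adjusted p = 0.00328) for Col6a2, -0.40 (adjusted p = 6.4e-05) for Col6a3 and 0.42 (adjusted p = 5.3e-05) for Col5a3, all below the threshold of fold. Col12a1, a fibril-associated collagen, fell by 1.69 early and by 2.42 over the whole process. Col14a1 was called lower early and higher late, Col11a2 lower late and Col11a1 higher over the whole process. The late log2 fold change of Col11a2 was -1.01 (SE 0.18, adjusted p = 2.4e-04), just past the threshold. Its call was lost with DESeq2 and limma, which called 0 of these collagens lower late, while edgeR's exact test called 1.

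The sugar chains of these proteins are built by enzymes of the Golgi apparatus. Of 6 tested enzymes of the linker to the core protein, 1 was called at any step, the phosphatase gene Pxylp1, with an early log2 fold change of -1.27 (SE 0.11, adjusted p = 5.1e-08), and the medians were 0.19, 0.17 and 0.30. That is 16.7% of the list early, near the 17.8% of all tested genes. Of 13 tested chondroitin and dermatan sulfate enzymes, 2 rose and 1 fell early, 1 rose late and 2 rose over the whole process, with medians of 0.17, 0.07 and 0.22. These shares of 23.1%, 7.69% and 15.4% lay near the 17.8%, 7.05% and 18.0% called over all tested genes and are no result about the list. Chst11, a chondroitin 4-O-sulfotransferase gene, was at 6.60 ± 0.604, 23.3 ± 0.885 and 14.0 ± 0.246 FPKM and rose by 1.89 early on the log2 scale (SE 0.06, adjusted p = 1.9e-13). Chst15 rose by 2.75 early from 0.110 ± 0.0265 FPKM. Csgalnact1, which starts the chain, had log2 fold changes of -1.33 (SE 0.08, adjusted p = 2.4e-10) early and 1.00 (SE 0.08, adjusted p = 3.7e-08) late, the latter just past the threshold. It ended below day 0 with a whole log2 fold change of -0.32 (SE 0.07, adjusted p = 8.9e-04). DESeq2 and edgeR's exact test also called 1 of these chondroitin and dermatan sulfate enzymes higher late, while limma called 0.

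Of 5 tested keratan sulfate enzymes, 0 were called early by edgeR, DESeq2 or limma (1 was higher and 1 lower at an unadjusted p under 0.05), 1 higher late and 2 higher over the whole process, with medians of 0.11, 0.64 and 0.52. Over all tested genes 17.8%, 7.05% and 18.0% were called. The called genes were the sulfotransferase genes Chst1, at 11.4 ± 1.04, 12.1 ± 0.933 and 26.2 ± 1.35 FPKM, and Chst2, at 14.7 ± 0.965, 15.1 ± 1.19 and 28.3 ± 2.14 FPKM. Their early log2 fold changes were 0.16 and 0.11, both short of the p threshold, and day 8 was higher. Chst1 had a late log2 fold change of 1.16 (SE 0.07, adjusted p = 2.4e-09). Of 9 genes that supply sugars and activated sulfate, 0 were called in any comparison by edgeR or DESeq2, while at an unadjusted p under 0.05 in edgeR 2 were higher and 3 lower early, 3 higher and 1 lower late, and 3 higher and 5 lower over the whole process, with medians of -0.18, -0.03 and -0.20. Limma on log2(FPKM + 0.1) called 1 lower early and over the whole process. Ugdh, which makes the glucuronic acid donor, had a whole log2 fold change of -0.89 (SE 0.05, adjusted p = 1.5e-10).

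Of 11 tested proteases that process or cut these proteins, 3 fell early (Mmp3, Mmp9 and Tll1), 3 rose late (Mmp3, Mmp9 and Mmp13), and 1 rose (Mmp13) and 1 fell (Tll1) over the whole process, with medians of -0.22, 0.20 and 0.02. The called share was 27.3%, 27.3% and 18.2%, against 17.8%, 7.05% and 18.0% over all tested genes, so that it lay near the background for the whole process. By adjusted p alone the proteases went both ways. There were 3 higher and 6 lower early, 4 higher and 1 lower late, and 4 higher and 4 lower over the whole process. Of all tested genes 69.2%, 45.3% and 71.0% passed by adjusted p alone, and the late and whole counts of the proteases lay near these shares. Mmp3, stromelysin 1, was at 18.5 ± 1.07, 2.60 ± 0.273 and 9.90 ± 1.25 FPKM, with log2 fold changes of -2.76 early (SE 0.11, adjusted p = 1.3e-12) and 1.97 late (SE 0.11, adjusted p = 8.3e-10). Mmp2, the most abundant of them, was at 409 ± 43.4, 779 ± 113 and 698 ± 20.3 FPKM, an early log2 fold change of 0.99 (SE 0.09, adjusted p = 5.7e-08) just under the threshold.

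Of 13 tested growth factors and receptors that bind decorin or biglycan, 1 rose (Egfr) and 3 fell (Ctgf, Tlr2 and Wisp1) early, 1 rose late (Tgfbr1), and 3 rose (Egfr, Tgfb2 and Tgfbr1) and 2 fell (Ctgf and Igf1r) over the whole process, with medians of -0.08, 0.38 and 0.16. The called share was 30.8%, 7.69% and 38.5%, against 17.8%, 7.05% and 18.0% of all tested genes, and the late share was thus near the background. Egfr, a receptor of decorin, was at 4.49 ± 0.671, 15.1 ± 0.710 and 14.6 ± 0.334 FPKM, an early log2 fold change of 1.80 (SE 0.07, adjusted p = 2.2e-12). Tgfbr1 was at 9.06 ± 0.374, 9.95 ± 0.821 and 22.9 ± 0.570 FPKM, a late log2 fold change of 1.26 (SE 0.06, adjusted p = 6.1e-11). Tlr2, a receptor of biglycan, was at 10.3 ± 0.345, 3.96 ± 0.763 and 6.80 ± 0.410 FPKM. Ctgf, a matricellular protein of fibrous tissue, had 112 to 160 counts at day 0 and 4 to 14 at day 4, and fell by 3.70 on the log2 scale (SE 0.30, adjusted p = 1.7e-08).

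Among 14 tested core proteins of other proteoglycans, 1 rose (Prg4) and 3 fell (Cspg4, Gpc6 and Sdc3) early, 1 rose late (Sdc3), and 1 rose (Prg4) and 1 fell (Agrn) over the whole process. The called share was 28.6%, 7.14% and 14.3%, against 17.8%, 7.05% and 18.0% of all tested genes, near the background late and over the whole process. Their medians were -0.30, -0.02 and -0.12, and their summed level was 755 to 793, 655 to 710 and 597 to 608 FPKM, lower at day 8 where that of the 8 small proteoglycans was higher. Vcan, the large proteoglycan versican, was at 141 ± 6.14, 155 ± 10.4 and 81.8 ± 1.83 FPKM, a whole log2 fold change of -0.81 (SE 0.06, adjusted p = 9.4e-09). Sdc3, a membrane proteoglycan, had log2 fold changes of -1.62 (SE 0.08, adjusted p = 4.2e-11) early and 1.56 (SE 0.08, adjusted p = 3.5e-10) late, and of -0.06 (SE 0.08, adjusted p = 0.532) over the whole process, beside 1.34 for Fmod.

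Likeness to other genes was measured by Pearson's r of log2 CPM over the 9 samples, among 11466 tested genes whose mean log2 CPM reached 1. The samples form 3 days, so r mostly describes the pattern of 3 day means and not the size of the change, and no p is given. For Dcn the most alike genes were Islr (0.9991), Cpz, a carboxypeptidase gene (0.9958), and Nrep (0.9942), and 8 genes reached 0.99. For Lum they were Crtap, a collagen-modifying protein (0.9985), Igf2 (0.9972) and Abi3 (0.9962), and 40 genes reached 0.99. Crtap had a whole log2 fold change of 0.39 and Igf2 of 4.67, beside 6.02 for Lum. For Fmod they were Ppargc1a, a coactivator of mitochondrial genes (0.9940), the clock repressor Nr1d1 (0.9938) and Lhfpl2 (0.9928), whose early and late log2 fold changes were -0.59 and 0.98, -0.71 and 1.43, and -0.55 and 0.96.

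For Aspn the most alike genes were Trappc13 (0.9935), the lysophosphatidic acid receptor gene Lpar4 (0.9932) and the carnitine transporter gene Slc22a5 (0.9905). For Prelp they were Mutyh (0.9951), Amz2 (0.9944) and the histone demethylase gene Kdm6b (0.9941), and for Ogn Cyp2u1 (0.9820), Ssr3 (0.9816) and Gprc5c (0.9806). Those of Podn were Zfp503 (0.9878), Sowahc (0.9814) and the peroxisome gene Pex3 (0.9800). Those of Bgn were Cpt1a (0.9513), which brings fatty acids to mitochondria, Cbarp (0.9434) and Tm7sf3 (0.9200). With log2(FPKM + 1) in place of log2 CPM, 7 of these 24 genes remained among the 3 most alike. Of the 3 named for each gene, 0 remained for Lum, Bgn and Podn, 1 for Dcn, Fmod and Prelp, and 2 for Aspn and Ogn. All names given for Lum, Bgn and Podn and most of those for Dcn, Fmod and Prelp thus rest on the scale used. Among the 8 genes themselves r was 0.98 between Dcn and Prelp and between Dcn and Ogn, 0.95 between Dcn and Lum, and -0.01 between Aspn and Fmod.

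Markers of other cell types that also express these proteoglycans were examined beside the changes, and their calls stand against the same 17.8%, 7.05% and 18.0% of all tested genes. Of 10 tendon, bone and cartilage markers 4 were tested, and Sox9 and Tnmd were called lower early, Tnmd higher late and Sox9 lower over the whole process. They summed to 83.8 to 91.3, 41.7 to 44.8 and 41.5 to 45.6 FPKM, with Sox9 the most abundant at 58.9 ± 2.58, 27.1 ± 1.81 and 18.8 ± 1.01 FPKM, and Acan was at 0 in every day 4 and day 8 sample and Bglap in every day 4 sample. The fibroblast markers Dlk1, an inhibitor of fat cell formation, and Ly6a were called lower early, Dlk1 higher late, and Ly6a and Cd34 lower over the whole process, of 8 tested. Dlk1 was at 828 ± 33.6, 181 ± 13.9 and 415 ± 5.57 FPKM, with its lowest mean at day 4. All 10 adipocyte markers were called higher early and over the whole process, and Cfd, Lep and Slc2a4 late. The lipid droplet gene Cidec had the largest early value among the more abundant ones, 10.20 on the log2 scale (SE 0.16, adjusted p = 3.7e-17), and Adipoq followed at 9.91. The 7 macrophage markers summed to 5.0 to 8.98 FPKM, led by Cd14 at 2.34 to 4.94 FPKM, with Adgre1 at 0 in every day 0 and day 8 sample and Itgam in every day 8 sample, and of 4 tested Lyz2 was called lower early and higher late. The 5 endothelial markers summed to 0.24 to 1.08 FPKM, led by Vwf at day 0 with 0.410 to 0.580 FPKM, and of 2 tested Vwf was called lower early and over the whole process and Pecam1 higher late and over the whole process. Of the neuron and glia markers, Snap25 was called higher early and over the whole process. The part of a changing cell mixture in the changes of the 8 genes was not tested.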

How the data were processed

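The 9 samples (3 each of day 0, 4 and 8) were analysed from the deposited tables, 1 per sample. The authors filtered reads, mapped them with HISAT/Bowtie2 and estimated levels with RSEM, and the submitters' processing notes also name CASAVA 1.4. The deposited expected counts are estimated counts per gene without normalization, of which 29.8% are not whole, and in the deposited FPKM the authors had divided by gene length and sample depth. The genome build, the versions of the mapping tools and the use of strand are not given in the sources used here. The labels name a library kit of one platform and protocols of another, and the methods describe each sample as a mixture of RNA. Symbols and IDs are those of the files, 26 symbols that had become dates were restored by ID, and 19040 of 19094 IDs matched the RefSeq table.

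Expected counts were rounded and tested in R 4.3.3 with edgeR 4.0.16 (filterByExpr by day, TMM factors, glmQLFit and glmQLFTest, 9 samples, 1 coefficient per day). The filter kept 13154 genes. P-values were Benjamini-Hochberg adjusted over them, and calls needed an adjusted p below 0.05 with more than a 2-fold difference. The standard error is the log2 fold change divided by the square root of F, and intervals cover 95%. "Rose" and "fell" are used of called genes. Log2 CPM used a prior count of 2, and the detection floor was 3 counts per sample, for counting error only. The steps were tested on simulated data.

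The text names the 8 genes, all other genes of the family, and from each list the up to 2 largest called rises and falls per comparison (mean log2 CPM of 1 or more). Col1a1, Col1a2, the most abundant gene of some but not all lists and the 3 genes most alike each of the 8 are also named. Further called genes (Lpl, Col6a1, Col11a1, Col14a1, Cspg4, Tll1, Wisp1, Tgfb2, Lep, Cd34, Lyz2, Pecam1, Tnmd and Snap25), markers at 0 and Cenpp were named after their values were seen. The 8 genes, the lists and the settings were chosen with earlier results of these data known. Alternatives were RLE factors, library size alone, no low-count filter, at least 10 counts in every sample, DESeq2 1.42.0, edgeR's exact test, limma 3.58.1 on log2(FPKM + 1) and log2(FPKM + 0.1), a replicate block, each sample left out in turn, adjusted p alone, and FPKM rescaled to TPM. Counts without Podn were added after seeing the data. Fold changes on the log2(FPKM + 1) scale understate the change of low genes. Samples of 1 day differed by 2.4 to 10.7 in chi-square per gene, more than counting noise, so none was merged. Protein sequences were not used here. A gene covered by the naming rule is not reported here.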

Additional observations from a re-analysis of the deposited data

How the results depend on the processing

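Of 429 values of the 8 genes under 18 other settings, 411 kept their direction and their call. Over the whole process Bgn had a log2 fold change of -0.07 in place of 0.04 with library size alone (adjusted p = 0.157), with log2(FPKM + 1) (0.210) and with log2(FPKM + 0.1) (0.215), where limma or edgeR made no call. Library size alone moved the median of all tested genes over the whole process from -0.02 to -0.13, and log2(FPKM + 0.1) moved it to -0.12, so that Bgn lay above that median in each of these settings. In the early phase 6 of the 8 genes were called by adjusted p alone (5 higher and 1 lower) in place of 3, and in the late phase 3 were called with limma on log2(FPKM + 1) in place of 5. There Prelp was at 1.00 and Podn at 0.33, and Podn also lost its early (0.27) and whole (0.60) calls. Podn was not tested where 10 counts in every sample were required, and its late value was 0.82 with log2(FPKM + 0.1). Aspn was called over the whole process under 7 settings, with values from 1.00 to 1.06. Leaving out each sample in turn gave 3 called genes early, 4 to 5 late and 5 to 6 over the whole process. The day 8 over day 0 ratio of the summed level was 1.28 as TPM and 1.32 as FPKM.

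The replicate numbers were not taken as pairs. The deviations of same-numbered samples correlated by 0.0307 on average (-0.0348 to 0.075 over 9 pairs, 0 of them above 0.1). Samples with other numbers had a lower mean, -0.0154, and 6 of 9 samples were closest to their own number. With the replicate block 3, 5 and 5 of the 8 genes were called, as without it. Depth limits Podn, whose day 0 counts were 5.02 to 12.3, and the 4 untested genes of the family.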
